A study of Mus musculus with 6 samples.

Results

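The genes described here are 31 genes of cholesterol and lipid synthesis, of 58870 genes in the annotation used for the RNA-seq. They were taken from a list of symbols, with no threshold on a measured value, but the list was drawn up with earlier results of these data known, among them a rise of cholesterol synthesis genes. They comprise 18 enzymes that carry carbon from acetyl-CoA to cholesterol, 5 genes of the sterol-sensing machinery that controls those enzymes, 4 enzymes of fatty acid and glycerolipid synthesis, and 4 proteins that move sterols. All 31 had reads and passed the filter on low counts. ABCA1 did so with 45 expected counts summed over No Dox and 46 over Dox.

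Transcripts were measured in 77-5 cells, a clone of the human embryonic kidney line T-REx-293, which expresses the tetracycline repressor. All 6 samples carried the same constructs, namely a minigene of mouse Ntrk2 (TrkB) made from a bacterial artificial chromosome behind a synthetic CAG promoter, a neomycin resistance cassette used for selection, and Rbfox1 under tetracycline control. The groups differed by treatment and not by construct. The control samples (No Dox, n = 3) received no treatment. The Rbfox1 expression samples (Dox, n = 3) received doxycycline for 48 h to induce Rbfox1, a splicing regulator that binds RNA. The labels and methods give the dose as 0.5 mg/ml, whereas the legends of the study give the same number in micrograms per ml. The cells are of 1 clone, and the Dox samples differed both in doxycycline and in Rbfox1, so effects of the drug and of the protein cannot be told apart here. The labels do not say that samples of a group were separate cultures, so p-values measure the spread between these samples, which may be technical. The labels name mouse as the organism, but the cells and the transcripts are human.

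RBFOX1 was at 7.53 ± 0.79 TPM in No Dox and 188 ± 1.77 TPM in Dox (SD, n = 3), the direction the labels give, with reads of the construct and of the endogenous gene counted together. Total expected counts, the fragments that RSEM assigned per library, were 59822964 to 65774104, and with a biological coefficient of variation of 2.87% even small differences could pass the test. Over genes as a whole, Dox replicate 3 differed most from its group. The chi-square per gene between 2 samples was 6.18 and 4.28 for its pairs with Dox replicates 1 and 2. It was 2.30 for the remaining Dox pair and 2.44 to 3.01 for the No Dox pairs. Mitochondrial genes took 3.25% to 3.34% of expected counts in No Dox and 3.61% to 3.71% in Dox. Of 8 genes taken as markers of HEK293 cells, all reached 1 TPM (a level scaled for transcript length and for the total of the sample) in at least 1 sample. NEFM did so only in Dox, at 1.11 to 1.21 TPM against 0.45 to 0.61 TPM in No Dox. Their summed level was 1165 to 1180 TPM in No Dox and 1047 to 1084 TPM in Dox. VIM made up most of this sum, at 692 and 666 TPM on average. By the edgeR test given below, VIM, KRT8, KRT18 and NEFL fell, NEFM and CDH2 rose, and PAX2 and LHX1 did not pass. Markers of hepatocytes (5 of 5), adipocytes (5 of 5) and leukocytes (4 of 4) stayed under 1 TPM in every sample, as did 2 of 4 fibroblast markers. The summed fibroblast markers were at 8.49 to 8.87 TPM in No Dox and 11.4 to 11.9 TPM in Dox, and the part of these group differences in the results was not tested.

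Animal cells build cholesterol from acetyl-CoA through mevalonate, isoprenoid units, squalene and lanosterol. When sterols in the endoplasmic reticulum are scarce, SCAP escorts the membrane-bound SREBP transcription factors to the Golgi, where proteases release the part that enters the nucleus and activates genes of sterol and fatty acid synthesis. When sterols are plentiful, INSIG proteins hold SCAP in the endoplasmic reticulum. SREBP-2, from SREBF2, acts mainly on sterol genes, and SREBP-1, from SREBF1, mainly on fatty acid genes.

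With doxycycline, 18 of the 31 genes rose, 6 fell and 7 did not pass the gene test (edgeR quasi-likelihood test, Benjamini-Hochberg adjusted p under 0.05 over all genes tested). Among all 18264 genes tested, 51.4% passed, with 24.9% higher and 26.5% lower in Dox. When libraries were scaled by total counts alone, 5682 genes were called higher and 3753 lower, and the 31 genes gave 18 higher and 4 lower. The median log2 fold change was 0.16 for the 31 genes and 0.00 for all genes tested. Most changes were small, and against a null of a 1.2-fold change 6 of the 31 were called higher and 1 lower, where 7.3% and 6.01% of all genes were. The genes past that threshold were HMGCS1, IDI1, MSMO1, HSD17B7, SC5D and STARD4 on the higher side and FASN on the lower. The TPM ranges of the groups did not overlap for 17 genes that were higher in Dox and 6 that were lower, compared with 28.1% and 22.2% of all genes tested. In bulk RNA, a change in a share of the cells and a change in the RNA of every cell cannot be told apart.

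**Figure D1:**
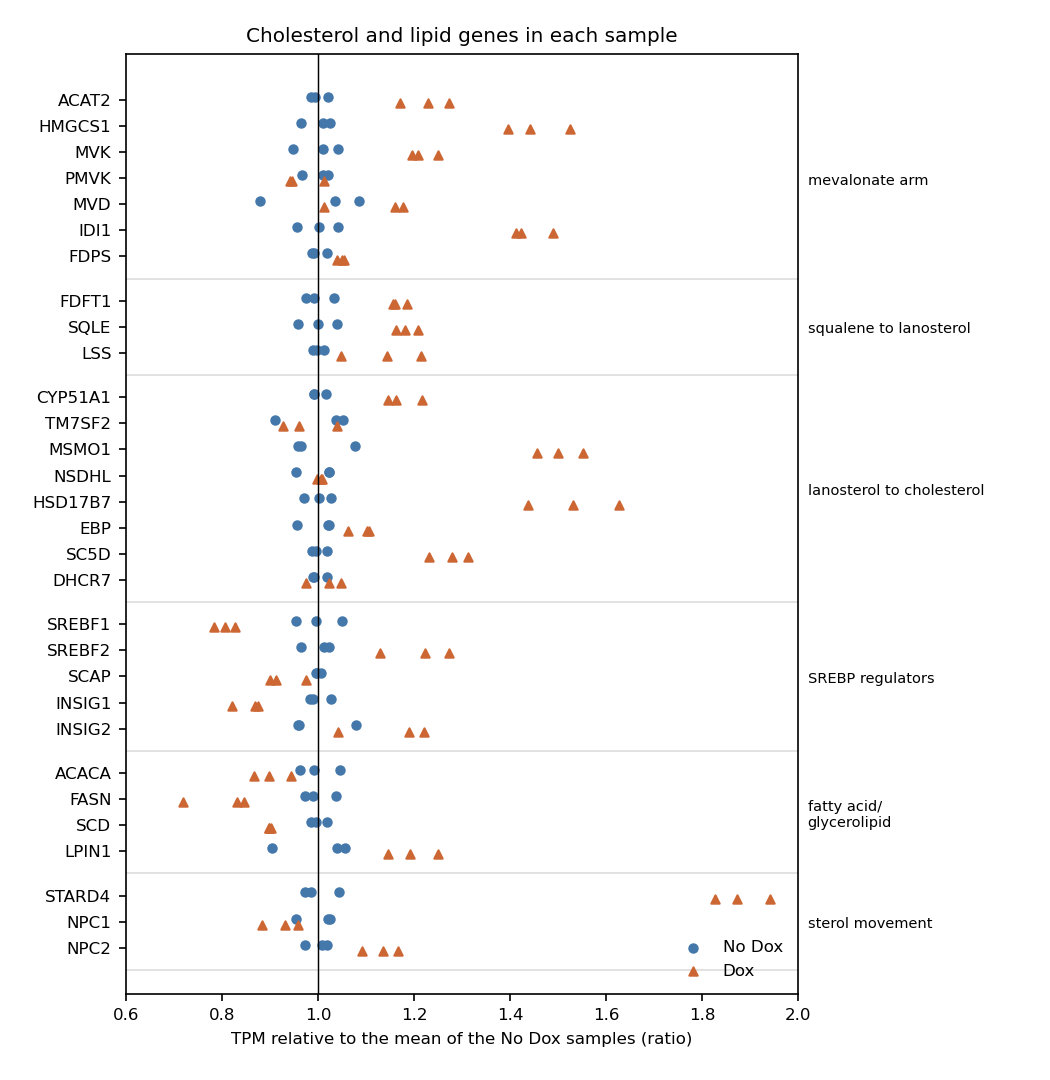
TPM of each gene in each sample, divided by the mean of its No Dox samples, on a linear axis. Genes are grouped by role, with 3 No Dox points and 3 Dox points per gene. HMGCS1, IDI1, MSMO1, HSD17B7, SC5D and STARD4 sat higher in all 3 Dox samples than in any No Dox sample, FASN sat lower in all 3, and ABCA1, at 0.03 to 0.05 TPM on average, is left out.

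Calls were then counted by branch of the pathway. Of the 18 cholesterol enzymes, 13 rose, 0 fell and 5 did not pass the test, with a median log2 fold change of 0.20. Because a rise of such genes in these samples was known when the list was made, this count is a description and not independent evidence of its direction. Their summed level was 1461, 1421 and 1443 TPM in No Dox against 1698, 1676 and 1709 TPM in Dox. ACACA, FASN and SCD, 3 enzymes of fatty acid synthesis, all fell. Together they were at 619, 632 and 607 TPM in No Dox and 537, 532 and 494 TPM in Dox. Both sums were free of overlap between the groups. A wider list of 23 further genes tested joins fatty acid synthesis with elongation and desaturation. Of these, 11 rose and 6 fell, where 24.9% of all genes tested were higher and 26.5% lower. The 3 enzymes were therefore not taken to stand for that wider list.

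In the mevalonate arm, 5 of 7 enzymes rose. ACAT2, which condenses acetyl-CoA units, rose from 122 ± 2.26 to 149.6 ± 6.27 TPM (SD, n = 3), giving a log2 fold change of 0.23 ± 0.03 (SE, edgeR adjusted p = 4.3e-06). TCP1, a chaperonin gene that overlaps ACAT2 on the opposite strand, fell (log2 fold change -0.07, adjusted p = 0.0086 by edgeR). Whether the authors counted by strand is not stated in the sources used here, and an exchange of reads between the pair was not tested.

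HMGCS1 (ENSG00000112972.15), the cytosolic HMG-CoA synthase, was at 119, 114 and 121 TPM in No Dox against 170.0, 165 and 179.7 TPM in Dox, giving a log2 fold change of 0.57 ± 0.03 (SE, edgeR adjusted p = 1.5e-10). Each Dox sample was above every No Dox sample. Mevalonate kinase MVK (ENSG00000110921.14) measured 17.5, 18.6 and 19.2 TPM in No Dox against 22.3, 22.1 and 23.0 TPM in Dox, giving a log2 fold change of 0.32 ± 0.04 (SE, edgeR adjusted p = 7.8e-06), again without overlap. The isomerase IDI1 (ENSG00000067064.11), which makes dimethylallyl diphosphate, read 106, 97.2 and 102 TPM in No Dox against 145, 144 and 152 TPM in Dox. Its groups were well apart, with a log2 fold change of 0.53 ± 0.03 (SE, edgeR adjusted p = 7.8e-10). MVD, the mevalonate diphosphate decarboxylase, rose by the test (log2 fold change 0.21, adjusted p = 0.0049 by edgeR), but its groups overlapped in TPM at 25.5 ± 2.73 TPM in No Dox and 28.5 ± 2.32 TPM in Dox. The MVD call was lost when transcript length was taken into account (log2 fold change 0.13, adjusted p = 0.23) and by limma on log2(TPM + 1) (0.16, adjusted p = 0.19).

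PMVK and FDPS did not pass. Phosphomevalonate kinase PMVK was at 40.9 ± 1.18 TPM in No Dox and 39.5 ± 1.61 TPM in Dox, with a log2 fold change of -0.09 (95% interval -0.18 to 0.00). Without Dox replicate 1 it was called lower (-0.12, adjusted p = 0.041). FDPS, the farnesyl diphosphate synthase and the most abundant of the 18 enzymes, was at 289 ± 4.91 TPM in No Dox and 303 ± 2.29 TPM in Dox, with a log2 fold change of 0.00 (95% interval -0.05 to 0.06). On the TPM scale its groups did not overlap, and limma on log2(TPM + 1) called it higher (0.07, adjusted p = 0.035).

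All 3 enzymes from squalene to lanosterol rose, by little. Squalene synthase FDFT1 went from 182 ± 5.52 to 212 ± 2.90 TPM (log2 fold change 0.19, adjusted p = 3.5e-05), and squalene epoxidase SQLE went from 90.5 ± 3.67 to 107 ± 2.01 TPM (log2 fold change 0.21, adjusted p = 2.6e-05). LSS, which closes the sterol rings to form lanosterol, was at 60.9, 61.4 and 62.3 TPM in No Dox against 74.7, 70.4 and 64.5 TPM in Dox. Its Dox samples were all above its No Dox samples but spread widely. The log2 fold change of 0.10 ± 0.04 (SE, edgeR adjusted p = 0.040) did not hold when any 1 of 5 samples was left out (adjusted p of 0.085 to 0.18), and it held without Dox replicate 3.

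From lanosterol to cholesterol, 5 of 8 enzymes rose, and the 3 with the larger changes were HSD17B7, MSMO1 and SC5D. HSD17B7 (ENSG00000132196.14), the sterol ketoreductase, was at 16.2, 17.1 and 16.7 TPM in No Dox against 27.2, 24.0 and 25.6 TPM in Dox, giving a log2 fold change of 0.62 ± 0.05 (SE, edgeR adjusted p = 1.3e-08). It showed the largest rise of the 18 enzymes. MSMO1 (ENSG00000052802.13), the methylsterol oxidase, was at 29.0, 26.0 and 25.8 TPM in No Dox against 40.4, 39.2 and 41.8 TPM in Dox, with a log2 fold change of 0.55 ± 0.04 (SE, edgeR adjusted p = 4.4e-08). The sterol desaturase SC5D (ENSG00000109929.10) was at 32.3, 32.5 and 33.3 TPM in No Dox against 40.2, 41.8 and 43.0 TPM in Dox, giving a log2 fold change of 0.40 ± 0.03 (SE, edgeR adjusted p = 1.2e-08). For all 3 genes every Dox sample exceeded every No Dox sample.

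HSD17B7 has a near-identical pseudogene, HSD17B7P2, with which it can share reads. HSD17B7P2 moved the same way, from 1.87 ± 0.18 to 3.72 ± 0.44 TPM (log2 fold change 0.95, adjusted p = 1.0e-05 by edgeR), so the division of reads between them is uncertain. In summed expected counts the pseudogene held 302 against 2668 for HSD17B7 in No Dox and 601 against 4222 in Dox.

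CYP51A1, the lanosterol demethylase, rose from 43.9 ± 0.65 to 51.6 ± 1.62 TPM (log2 fold change 0.18, adjusted p = 6.7e-05 by edgeR), beside 27 and 59 expected counts for its antisense gene CYP51A1-AS1 over No Dox and Dox. The isomerase EBP rose from 139 ± 5.35 to 152 ± 3.35 TPM (log2 fold change 0.10, adjusted p = 0.015). The EBP call was lost without No Dox replicate 2 (adjusted p = 0.11), without Dox replicate 2 (adjusted p = 0.087), and with transcript length taken into account (adjusted p = 0.065). The reductase TM7SF2, the dehydrogenase NSDHL and the final reductase DHCR7 did not pass. Their log2 fold changes were -0.04 (95% interval -0.16 to 0.09), -0.03 (95% interval -0.11 to 0.04) and -0.01 (95% interval -0.08 to 0.06). TM7SF2 and DHCR7 reduce sterol double bonds, and NSDHL acts between MSMO1 and HSD17B7 in the same demethylation sequence, in which those neighbours rose.

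**Figure D2:**
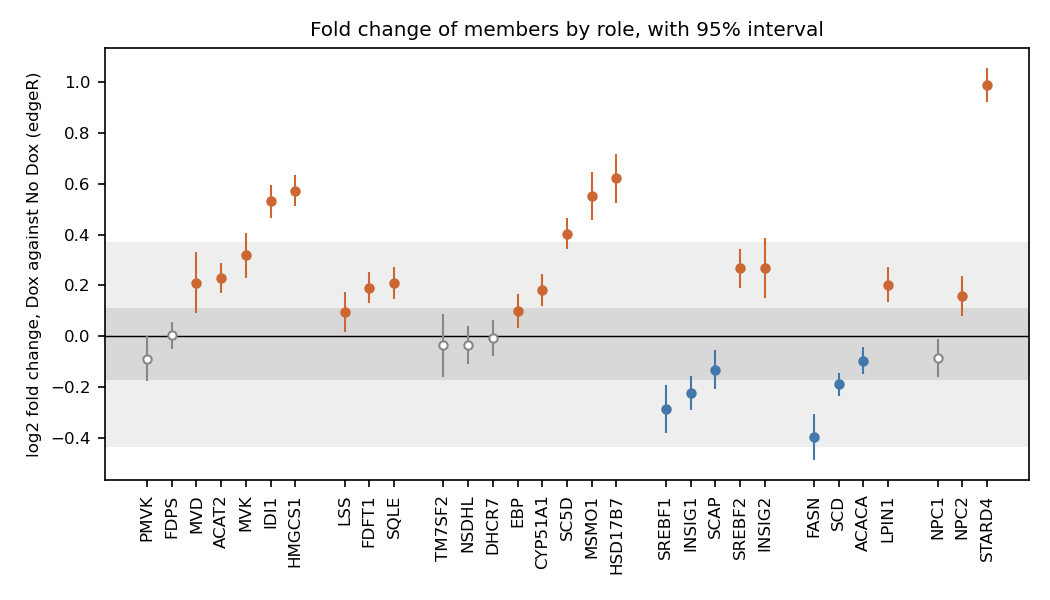
Log2 fold change of each gene, Dox against No Dox, with its 95% interval from edgeR, coloured by call and grouped by role. Grey bands mark the middle 50% and 90% of genes with a mean of 5 TPM or more. STARD4 lies far above both bands, FASN lies near the lower edge of the wider one, and ABCA1 is left out.

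All 5 genes of the sterol-sensing machinery passed the test, in both directions, where 51.4% of all genes tested passed. Against the null of a 1.2-fold change, 0 of the 5 were called higher and 0 lower. SREBF1, SCAP and INSIG1 fell, and SREBF2 and INSIG2 rose. SREBF2 (ENSG00000198911.12), which encodes SREBP-2, was at 55.6, 55.1 and 52.4 TPM in No Dox against 69.2, 66.4 and 61.4 TPM in Dox, with a log2 fold change of 0.27 ± 0.04 (SE, edgeR adjusted p = 1.2e-05). SREBF1, which encodes SREBP-1, was at 41.0, 43.2 and 39.3 TPM in No Dox against 34.05, 33.2 and 32.3 TPM in Dox, with a log2 fold change of -0.28 ± 0.04 (SE, edgeR adjusted p = 5.6e-05). Neither gene overlapped between the groups, and the transcripts of the 2 factors thus moved in opposite directions. Their proteins were not measured here. INSIG2 (ENSG00000125629.15) was at 11.4, 10.2 and 10.2 TPM in No Dox against 12.9, 11.0 and 12.6 TPM in Dox, where Dox replicate 2 lay below No Dox replicate 1. Its log2 fold change of 0.27 ± 0.06 (SE, edgeR adjusted p = 7.2e-04) became 0.17 with an adjusted p of 0.094 once transcript length was taken into account, and 0.19 with an adjusted p of 0.084 by limma on log2(TPM + 1).

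INSIG1, the retention protein whose own gene responds to SREBP, fell from 92.6 ± 2.25 to 79.1 ± 2.72 TPM (log2 fold change -0.22, adjusted p = 2.1e-05 by edgeR). SCAP, the escort protein, fell from 36.3 ± 0.20 to 33.8 ± 1.43 TPM (log2 fold change -0.13, adjusted p = 0.0066). The SCAP call was lost when libraries were scaled by total counts alone (log2 fold change -0.08, adjusted p = 0.069) and on log2(TPM + 1) (-0.10, adjusted p = 0.057).

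Among the 4 listed enzymes of fatty acid and glycerolipid synthesis, ACACA, FASN and SCD fell and LPIN1 rose. Fatty acid synthase FASN (ENSG00000169710.9), the most abundant of the 31 genes in No Dox, was at 353, 371 and 348 TPM in No Dox against 303, 297 and 257 TPM in Dox, giving a log2 fold change of -0.40 ± 0.04 (SE, edgeR adjusted p = 1.2e-06). All 3 Dox samples were below the No Dox samples. Dox replicate 3, the sample that differed most from its group over genes as a whole, was the lowest. Stearoyl-CoA desaturase SCD fell from 208 ± 3.61 to 187 ± 0.59 TPM (log2 fold change -0.19, adjusted p = 2.5e-06 by edgeR). Acetyl-CoA carboxylase ACACA fell from 53.6 ± 2.24 to 48.4 ± 2.06 TPM (log2 fold change -0.10, adjusted p = 0.0038), and its call was lost under scaling by total counts alone (log2 fold change -0.05, adjusted p = 0.10). LPIN1 (ENSG00000134324.11), a phosphatidate phosphatase that makes diacylglycerol, was at 13.9, 11.9 and 13.7 TPM in No Dox against 16.5, 15.1 and 15.8 TPM in Dox, without overlap, with a log2 fold change of 0.20 ± 0.03 (SE, edgeR adjusted p = 7.1e-05).

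STARD4 showed the largest change of the 31 genes. STARD4 (ENSG00000164211.13), a soluble carrier that moves cholesterol between membranes, was at 23.3, 23.1 and 24.7 TPM in No Dox against 44.4, 43.3 and 46.0 TPM in Dox. Its samples fell into tight groups far from each other, and the fold change was 1.99 (log2 0.99 ± 0.03 (SE), edgeR adjusted p = 6.5e-13). Of the 11420 genes with a mean of 5 TPM or more, 39 had a larger log2 fold change. STARD4-AS1, an antisense gene, held 60 and 114 expected counts summed over No Dox and Dox, beside 9826 and 20072 for STARD4.

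NPC2, which binds cholesterol inside lysosomes, rose from 70.8 ± 1.64 to 80.1 ± 2.68 TPM (log2 fold change 0.16, adjusted p = 0.0019 by edgeR). Its membrane partner NPC1 did not pass, at 25.4 ± 1.02 TPM in No Dox and 23.4 ± 0.97 TPM in Dox (log2 fold change -0.09, 95% interval -0.16 to -0.01, adjusted p = 0.053). NPC1 was called lower when length was taken into account (log2 fold change -0.14, adjusted p = 0.025) and without Dox replicate 1 (-0.11, adjusted p = 0.029), and also without the filter on low counts (-0.10, adjusted p = 0.016). The sterol exporter ABCA1 was close to undetected and did not pass. Its 95% interval of -0.76 to 0.74 on the log2 scale means that changes within that range could not be told from none at this depth.

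Transcript isoforms of the genes were examined next. The 31 genes have 347 annotated isoforms, of which 203 passed the filter, 24 rose, 7 fell and 172 did not pass the isoform test (limma-voom, adjusted over all isoforms tested). Of all 72438 isoforms tested, 6.19% rose and 6.44% fell. Among the risers were 4 isoforms of STARD4 and 2 each of ACAT2, HMGCS1, HSD17B7, IDI1 and SC5D, and among those that fell were 2 each of FASN and INSIG1. Values of single isoforms are model estimates, because RSEM has to divide reads from shared exons among them.

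Isoform usage, the share of a gene's abundance given to each isoform, could be tested in 28 of the genes. It changed in 9 of them by limma diffSplice, where 26.1% of all 12328 genes tested were called. The 9 genes were HMGCS1, MVD, IDI1, LSS, EBP, SREBF2, INSIG1, ACACA and STARD4. The F test of the same fit called 8 of the 9, all but MVD, with 24.3% of all genes. A shift of at least 5 percentage points was also met by 5 of them, compared with 17.3% of all genes. The count-based edgeR diffSpliceDGE called 3, namely INSIG1, ACACA and STARD4, compared with 9.53% of all genes. For a set of 28 genes these counts lie near the shares of all genes. They describe single genes and are not a trait of the set. An error rate of 5% is not claimed for these usage calls, since the test takes isoforms of a gene to vary alike. In simulations where each isoform had its own spread, the error rate of diffSplice was above 5%.

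INSIG1 showed the largest shift. Its main isoform INSIG1-201 took 77.5%, 76.8% and 76.8% of the gene in No Dox against 88.9%, 87.6% and 85.9% in Dox (limma diffSplice adjusted p = 1.6e-06), without overlap. In level, INSIG1-201 did not pass the isoform test, at 71.3 ± 2.11 TPM in No Dox and 69.2 ± 2.45 TPM in Dox. The minor isoforms INSIG1-203 and INSIG1-206 fell. INSIG1-203 was at 10.0 ± 1.29 TPM in No Dox and 2.81 ± 1.60 TPM in Dox (log2 fold change -1.999 ± 0.35, limma-voom adjusted p = 0.013), and INSIG1-206 was at 6.57 ± 1.71 TPM in No Dox and 2.78 ± 1.06 TPM in Dox (log2 fold change -1.28 ± 0.32, limma-voom adjusted p = 0.048). The fall of the gene in TPM thus lay mostly in these minor isoforms, whose shares went from 10.8% ± 1.12 to 3.54% ± 1.95 and from 7.12% ± 1.97 to 3.51% ± 1.33.

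The rise of STARD4 lay mostly in its main isoform. STARD4-201 took 63.1%, 64.9% and 61.8% of the gene in No Dox against 71.4%, 70.2% and 71.0% in Dox, and its level went from 14.99 ± 0.29 to 31.6 ± 1.14 TPM (log2 fold change 1.07 ± 0.04, limma-voom adjusted p = 4.3e-05). The shares did not overlap, although the usage test of this isoform alone did not pass (limma diffSplice adjusted p = 0.079). STARD4-204 lost share, 8.71% ± 2.78 to 3.21% ± 0.93 (limma diffSplice adjusted p = 1.6e-05), and STARD4-211 gained share, 4.44% ± 1.40 to 8.86% ± 0.46 (limma diffSplice adjusted p = 0.0054). STARD4-207 held 115 expected counts summed over No Dox and 0 over Dox. With 0 taken as at most 3 counts for the group, a limit for counting error only, it was at least 38.0-fold lower.

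**Figure D3:**
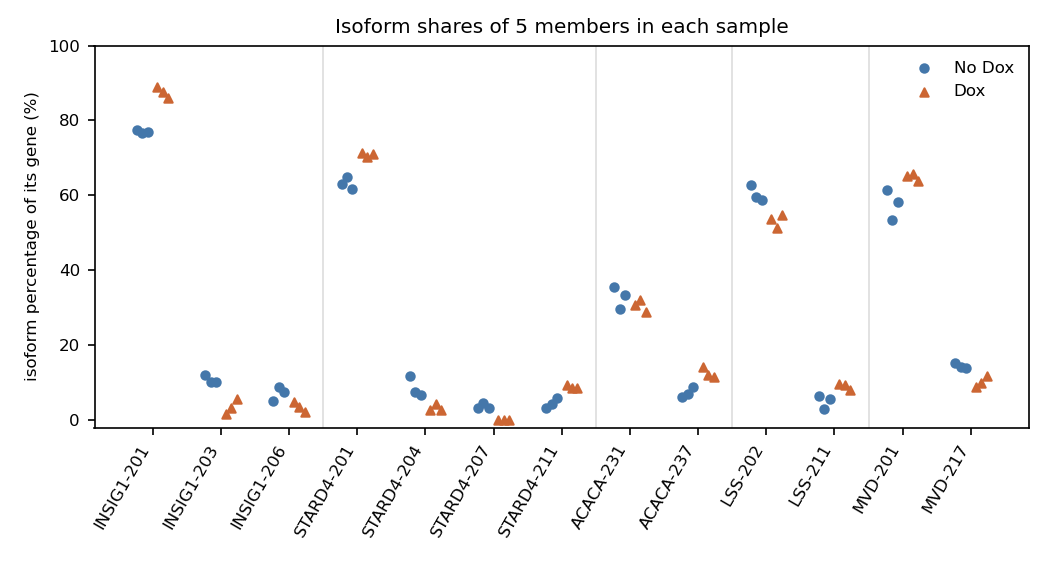
Percent of the gene given to an isoform in each sample, for 13 isoforms of INSIG1, STARD4, ACACA, LSS and MVD, with No Dox as circles and Dox as triangles. INSIG1-201, STARD4-201 and MVD-201 were higher in all Dox samples, and LSS-202 was lower in all of them.

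In LSS the main isoform LSS-202 took 62.7%, 59.6% and 58.6% of the gene in No Dox against 53.7%, 51.2% and 54.8% in Dox (limma diffSplice adjusted p = 0.0053), while its own level did not pass the isoform test, at 37.1 ± 0.93 TPM in No Dox and 37.2 ± 2.58 TPM in Dox. LSS-211 gained share, 5.01% ± 1.87 to 9.06% ± 0.96 (limma diffSplice adjusted p = 0.0029). Both shares were free of overlap. MVD-201 took 61.5%, 53.3% and 58.3% of the gene in No Dox against 65.3%, 65.8% and 63.8% in Dox (limma diffSplice adjusted p = 0.011), with 1 No Dox sample well below the others. ACACA-237 took 6.07%, 6.90% and 8.75% of the gene in No Dox against 14.3%, 12.1% and 11.4% in Dox (limma diffSplice adjusted p = 6.9e-07), and it rose in level while the gene fell (log2 fold change 0.66 ± 0.12, limma-voom adjusted p = 0.014). Another long ACACA isoform, ACACA-231, fell in level (log2 fold change -0.26 ± 0.06, limma-voom adjusted p = 0.034).

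In the other 4 genes the largest shift was under 5 percentage points. HMGCS1-204 went from 26.2% ± 1.31 to 22.2% ± 0.73, EBP-201 went from 13.5% ± 2.48 to 8.92% ± 1.28, IDI1-201 went from 77.0% ± 1.01 to 81.0% ± 0.75 and SREBF2-201 went from 87.0% ± 0.26 to 90.5% ± 1.11 of their genes. The main isoforms of IDI1 and SREBF2 thus held a larger share in Dox. HSD17B7-201 did not pass the usage test (limma diffSplice adjusted p = 0.71), with shares of 70.9% ± 1.78 in No Dox and 77.0% ± 0.46 in Dox, and both of its abundant isoforms, HSD17B7-201 and HSD17B7-208, rose in level.

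Genes around the pathway, taken as 6 further lists, had calls in both directions, 30 higher and 32 lower (43 and 26 when libraries were scaled by total counts alone). Of all genes tested, 24.9% were higher and 26.5% lower, and the counts of these lists are given as descriptions beside those shares. Of 14 genes for SREBP processing and sterol-regulated protein degradation, 4 rose, 4 fell and 6 did not pass, with a median log2 fold change of 0.02. MBTPS2, the site-2 protease that frees SREBP from the membrane, rose from 27.9 ± 0.33 to 42.8 ± 0.74 TPM (log2 fold change 0.62, adjusted p = 4.2e-11 by edgeR). RNF145, a ubiquitin ligase of the endoplasmic reticulum, fell from 38.9 ± 1.03 to 29.7 ± 0.64 TPM (log2 fold change -0.46, adjusted p = 3.6e-09). The sterol-binding protein TMEM97 rose from 59.6 ± 1.61 to 74.8 ± 1.16 TPM, and PAQR3, which tethers SCAP to the Golgi, rose from 24.9 ± 1.51 to 30.3 ± 2.08 TPM. ERLIN1 and VCP, which act in protein degradation at the endoplasmic reticulum, fell, with log2 fold changes of -0.15 and -0.11.

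Of 23 further genes tested for fatty acid synthesis, elongation and desaturation, 11 rose, 6 fell and 6 did not pass (median 0.09). HACD1, a dehydratase of fatty acid elongation, rose from 20.7 ± 0.82 to 39.0 ± 2.41 TPM (log2 fold change 0.95, adjusted p = 1.3e-09 by edgeR), and the desaturase SCD5, a relative of SCD, rose from 10.9 ± 0.39 to 16.4 ± 0.30 TPM (log2 fold change 0.56, adjusted p = 7.6e-09). The elongase ELOVL7 also rose (log2 fold change 0.30, adjusted p = 2.1e-06). ELOVL6, the elongase of palmitate, fell from 21.6 ± 3.995 to 14.7 ± 0.98 TPM (log2 fold change -0.46, adjusted p = 1.3e-08), as did FADS3 (log2 fold change -0.37, adjusted p = 7.1e-06) and the citrate carrier SLC25A1 (log2 fold change -0.29, adjusted p = 2.7e-07), which exports the carbon for cytosolic acetyl-CoA.

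Of 20 glycerolipid and lipid droplet genes tested, 5 were called higher by counts, 7 were called lower and 8 did not pass (median -0.01). CEPT1, which makes phosphatidylcholine and phosphatidylethanolamine, fell from 30.9 ± 0.47 to 18.1 ± 1.42 TPM (log2 fold change -0.80, adjusted p = 1.1e-09 by edgeR), and the acyltransferases AGPAT4 (log2 fold change -0.43, adjusted p = 1.1e-06) and GPAT3 (log2 fold change -0.20, adjusted p = 6.0e-04) fell as well. AGPAT5 (log2 fold change 0.22, adjusted p = 6.9e-06) and CDS2 (log2 fold change 0.14, adjusted p = 0.0011) rose. GPAT4 was called higher by counts (log2 fold change 0.21, adjusted p = 5.0e-06) but lower once transcript length was taken into account (log2 fold change -0.67, adjusted p = 4.3e-06), so no direction is given for it. AGPAT3, another acyltransferase, turned in the same way (log2 fold change 0.12 by counts, adjusted p = 0.0027, and -0.15 with length, adjusted p = 0.0032), with 77.7 ± 1.46 TPM in No Dox and 71.5 ± 2.62 TPM in Dox and no overlap. Both stand among the 5 called higher by counts. Of 15 genes of the isoprenoid branches tested, 2 rose, 6 fell and 7 did not pass (median -0.04). GGPS1, which elongates the product of FDPS, rose from 58.0 ± 2.08 to 68.3 ± 1.94 TPM (log2 fold change 0.30, adjusted p = 4.8e-07), and COQ2 of ubiquinone synthesis rose (log2 fold change 0.19, adjusted p = 0.0041), whereas the protein prenylation genes ZMPSTE24, PGGT1B and RABGGTA fell.

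Of 11 genes of the LXR receptors and sterol efflux, 3 rose, 3 fell and 5 did not pass (median 0.08). NR1H3, the receptor LXR-alpha, fell from 11.1 ± 0.32 to 8.02 ± 0.45 TPM (log2 fold change -0.63, adjusted p = 1.7e-06 by edgeR), and its partner RXRA fell (log2 fold change -0.19, adjusted p = 3.9e-04), as did the transporter ABCA2 (log2 fold change -0.31, adjusted p = 3.6e-05). RXRB, ABCA3 and ABCA7 rose, by log2 fold changes of 0.14, 0.12 and 0.21. Of 20 genes tested for sterol uptake, transport and storage, 5 rose, 6 fell and 9 did not pass (median 0.00). SCARB1, the receptor for high-density lipoprotein, fell from 96.8 ± 0.43 to 49.7 ± 2.87 TPM (log2 fold change -1.09, adjusted p = 2.6e-13), and the lipoprotein receptor LRP8 fell from 34.1 ± 0.39 to 22.9 ± 1.64 TPM (log2 fold change -0.42, adjusted p = 1.6e-08), as did the sterol-binding protein OSBPL2 (log2 fold change -0.40, adjusted p = 8.1e-08). TMEM41B and OSBPL8 rose by 0.21 and 0.09, and GRAMD1A, among the genes counted as rising by counts (0.16), was at -0.04 with length taken into account. In that setting the calls of ERLIN1 (edgeR adjusted p = 0.085), CDS2 (adjusted p = 0.16) and ABCA3 (adjusted p = 0.43) were lost. Calls were also lost for ELOVL1 (0.12), MCAT (0.48), LPIN2 (0.067), DGAT1 (0.053), CHKA (0.066), OSBPL9 (0.12), GRAMD1A (0.50) and GRAMD1C (0.63), each with its adjusted p. All of these genes are in the counts of the lists given above. In the same setting 3 genes that had not passed were called lower. They were C12orf49 (log2 fold change -0.14, edgeR adjusted p = 0.024), PDSS2 (-0.16, adjusted p = 0.028) and FNTA (-0.12, adjusted p = 0.021). The further lists then had 23 genes higher and 31 lower.

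**Figure D4:**
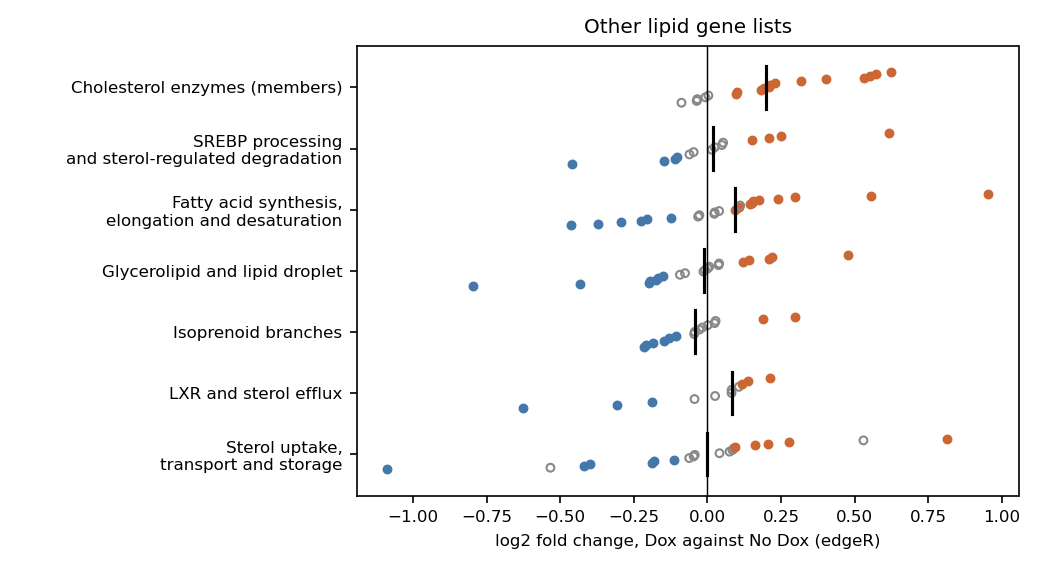
Log2 fold change, Dox against No Dox, of each tested gene in the cholesterol enzyme group and in the other lipid lists, filled where called and open where not, with a black line at the median. The cholesterol enzymes have 13 genes called higher and 0 lower, and each of the other lists has calls on both sides of 0, and since the enzymes were listed with a rise of such genes in these samples known, the plot tests no difference between lists.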

How the data were processed

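RNA-seq of 6 samples was analysed. Libraries were stranded mRNA preparations. The authors used cutadapt for trimming, STAR for alignment to GRCh38 and RSEM for isoform abundance, and the versions are not stated in the labels or methods. The deposited expected counts are fragment estimates without normalization, the deposited TPM values are scaled for transcript length and sample total, and the deposited isoform percent is the share of a gene given to an isoform. Depth was 59822964 to 65774104 expected counts per sample.

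Expected counts were summed per gene, rounded and tested in the 18264 genes past filterByExpr with edgeR 4.0.16 (TMM, glmQLFit and glmQLFTest) in R 4.3.3. Isoforms and their usage were tested with limma 3.58.1 (voom and diffSplice). Tests were two-sided with Benjamini-Hochberg adjustment over all features, and each was tested on simulated data. Alternatives were DESeq2 1.42.0, other scalings, filters and units, transcript length as an offset, a 1.2-fold threshold, a replicate block and leaving out each sample. The genes and lists were chosen with earlier results of these data known, and a rise of cholesterol synthesis genes was among those results.

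TPM per sample is printed for genes past the test with an absolute log2 fold change of at least 0.3 or a direction opposite to most of their role. SREBF1, LSS, AGPAT3 and isoforms other than the one with the largest shift in a gene with changed usage were added after values were seen. Up to 3 rises and 3 falls with at least 5 TPM were named per further list. Coordinates and sequences are not printed, because a human reference was not used here. Some genes of the pathway are not reported here.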

Additional observations from a re-analysis of the deposited data

How the results depend on the processing

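Of the 24 genes called among the 31, 0 changed direction under any alternative run. Among the 31, reversals occurred only in genes that did not pass the test, whereas in the further lists GPAT4, AGPAT3 and GRAMD1A, all called higher, had log2 fold changes of -0.67, -0.15 and -0.04 with the length offset. With total counts alone as the scaling, log2 fold changes became 0.011 for TM7SF2, 0.013 for NSDHL, 0.041 for DHCR7 and 0.040 for ABCA1. With only genes of at least 5 TPM, they became 0.00084 for TM7SF2, 0.0026 for NSDHL and 0.030 for DHCR7. On log2(TPM + 1) they became 0.0064 for NSDHL, 0.021 for DHCR7 and 0.027 for ABCA1. Without the filter FDPS was at -0.011, and with the length offset ABCA1 was at 0.44. Leaving out 1 sample gave -0.088 to 0.017 for TM7SF2, -0.028 to 0.032 for DHCR7, -0.017 to 0.017 for FDPS and -0.27 to 0.21 for ABCA1. The cause was not tested.

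Against a 1.2-fold threshold, which asks more of each gene by construction, 6 of the 31 genes were higher and 1 lower (18 and 6 without it), 4 and 9 genes of the further lists (30 and 32 without it), and 7 and 1 isoforms (24 and 7 without it). Usage was called in 5 genes with a shift of at least 5 points and in 3 by diffSpliceDGE, against 9. Leaving out 1 sample gave 16 to 18 genes higher and 6 to 8 lower, 16 to 21 isoforms higher and 2 to 6 lower, and 5 to 10 genes with changed usage, with the fewest, 5, without Dox replicate 1. The lower isoforms were 4 without No Dox replicate 3 or Dox replicate 1, 2 without Dox replicate 2 and 3 without Dox replicate 3. The length offset left 15 genes higher and 7 lower.

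The samples of the groups share replicate numbers, but their deviations correlated by only 0.04, 0.03 and 0.06, so the numbers were not taken as pairs, although each sample correlated best with its own number. With the replicate number as a block, 18 genes were higher and 7 lower, where the added gene was NPC1 (-0.085, edgeR adjusted p = 0.025), the lower isoforms numbered 4 and the log2 fold change of ABCA1 was 0.0055. Depth limits ABCA1 and the minor isoforms.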
